A study of Homo sapiens with 72 samples.

Results

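The genes described here are 5 ligands of the epidermal growth factor receptor (AREG, EREG, HBEGF, TGFA and EPGN) and 5 intracellular inhibitors of receptor signaling (SPRY1, SPRY2, SPRY4, SPRED1 and SPRED2), taken by name from the 62266 annotated genes of the study. They were chosen with earlier results of these data known, so their counts beside shares of all genes are descriptive. All 10 passed the filter on low counts in each of the 3 cell lines. In untreated cells, AREG had the highest level per length of the 10 and EPGN the lowest, in every line. With G. vaginalis, EREG, HBEGF, TGFA and EPGN rose in all 3 lines, SPRY4 passed the test in none, and SPRY1 fell in the endocervical and vaginal lines. Putrescine before the bacteria was followed by lower AREG, EREG and TGFA in all 3 lines. Spermine before the bacteria was followed by higher HBEGF, SPRY1, SPRY4 and SPRED2 in all 3.

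Ligands of the epidermal growth factor family are made as membrane proteins, and surface proteases, chiefly ADAM17, release the soluble growth factor. Bound to its receptor, the ligand starts the RAS, RAF, MEK and ERK kinase cascade, which drives growth, migration and repair of stratified epithelia. Sprouty and SPRED proteins are induced or activated by such signaling and restrain it at the level of RAS and RAF, so that their transcripts are commonly read as feedback outputs of the pathway.

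RNA was sequenced from 3 human epithelial lines, each immortalized with papillomavirus E6 and E7 genes. They were Ect/E6E7 from the ectocervix (called Ecto), End1/E6E7 from the endocervix (called Endo) and VK2/E6E7 from the vagina (called VK2). Each tissue is thus represented by a single line. Within each line, cells were pretreated for 4 h with spermine (SPM, 400 µM), spermidine (SPD, 400 µM) or putrescine (PUT, 4 mM), or were left non-treated (NT). They then received live G. vaginalis (GV) at 10000000 CFU per well for 24 h or were left without bacteria (noGV). The 3 polyamines form a chain in which spermidine carries an aminopropyl group more than putrescine, and spermine carries a further one. All groups were grown in a keratinocyte medium that itself contains epidermal growth factor and bovine pituitary extract. The 8 groups of each line held 3 libraries each, 24 per line and 72 in all. No source used here says whether the 3 replicates were separate cultures, so p-values measure the spread between these libraries, which may be technical.

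Library totals lay between 20152143 and 42767996 counts, with a median of 31872238.5, and the smallest belonged to VK2 SPM+GV cells (20152143 to 26810845). Among the 10 genes, the lowest count in any library was 43, for EPGN in Endo PUT+noGV cells, and the highest was 31859, for AREG in VK2 NT+GV cells. All 9 epithelial markers exceeded 1 CPM (counts-per-million) in each line. Of the 6 fibroblast markers 1 did so in Ecto cells, 1 in Endo cells and 2 in VK2 cells, with nearly all of the summed level from COL1A1. Their sum was higher in PUT+GV cells (47.6 to 51.8, 63.5 to 70.3 and 65 to 66 CPM in Ecto, Endo and VK2) than in NT+GV cells (25.3 to 29.7, 39.6 to 42.9 and 36.7 to 40.6 CPM). Of the 5 leukocyte markers 2 exceeded 1 CPM, with nearly all of the sum from CD68. Their sum was higher in NT+GV cells (67.3 to 69.2, 78.3 to 82 and 119 to 128 CPM in Ecto, Endo and VK2) than in NT+noGV cells (52.1 to 53.4, 38.3 to 41.8 and 73.4 to 79.5 CPM). After spermine it was lower, at 49.3 to 54.2, 57.6 to 63.2 and 78.2 to 80.9 CPM in SPM+GV cells. The sum of the epithelial markers was 6810 to 7190 CPM in Ecto NT+GV cells, against 9700 to 10100 CPM in Ecto NT+noGV cells, and 12100 to 12900 CPM in Endo NT+GV cells, against 17800 to 18400 CPM in Endo NT+noGV cells. In VK2 cells those ranges overlapped (26600 to 29100 and 28500 to 29500 CPM), and SPM+GV cells had 21900 to 22200 CPM. The 3 endothelial markers summed to between 0.372 and 3.76 CPM. No marker was at 0 in every library, and the part of these markers in the results below was not tested.

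AREG, EREG and EPGN lie in a row on the plus strand of chromosome 4 (GRCh38, annotation release 44): EPGN at chr4:74308470-74316789, EREG at chr4:74365145-74388749 and AREG at chr4:74445136-74455005. The gap is 48355 bp between EPGN and EREG and 56386 bp between EREG and AREG, with 0 protein-coding genes in either. BTC, a further ligand of the family, follows on the minus strand 289753 bp beyond AREG. HBEGF (chr5:140332843-140346603) and TGFA (chr2:70447284-70554193) lie elsewhere on minus strands. SPRY1 (chr4:123396795-123403760) and SPRED1 (chr15:38252836-38357249) are on plus strands, and SPRY2 (chr13:80335976-80341126), SPRY4 (chr5:142310427-142326455) and SPRED2 (chr2:65310851-65432637) on minus strands.

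The promoters of the 3 neighbours on chromosome 4 are shown because these genes differed in their response to the bacteria. Each sequence is the 250 bases before the RefSeq start (GRCh38.p14, plus strand): chr4:74444886-74445135 for AREG, chr4:74364895-74365144 for EREG and chr4:74308220-74308469 for EPGN. Capitals mark exact matches to the motifs searched.
AREG: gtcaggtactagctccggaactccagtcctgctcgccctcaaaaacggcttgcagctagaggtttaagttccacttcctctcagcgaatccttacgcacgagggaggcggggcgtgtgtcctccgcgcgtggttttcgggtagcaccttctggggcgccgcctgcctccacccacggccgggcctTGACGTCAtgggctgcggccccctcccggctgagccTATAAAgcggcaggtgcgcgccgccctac
EREG: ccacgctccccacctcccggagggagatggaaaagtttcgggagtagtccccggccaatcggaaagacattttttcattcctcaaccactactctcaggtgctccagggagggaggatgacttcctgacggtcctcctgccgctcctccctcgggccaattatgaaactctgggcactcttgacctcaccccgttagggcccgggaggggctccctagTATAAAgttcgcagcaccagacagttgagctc
EPGN: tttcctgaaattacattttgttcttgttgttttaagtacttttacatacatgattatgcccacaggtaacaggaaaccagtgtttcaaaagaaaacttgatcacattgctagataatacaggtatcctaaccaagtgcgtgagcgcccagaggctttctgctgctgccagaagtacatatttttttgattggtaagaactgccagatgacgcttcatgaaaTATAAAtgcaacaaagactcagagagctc
The search used the AP-1 motif TGACTCA, the cyclic AMP response element TGACGTCA, the ETS motif CCGGAAGT and the TATA box TATAAA on both strands, and the serum response element and the NF-kB motif by their usual consensus. The TATA box was added after the sequences were read. AREG held the cyclic AMP response element 65 bases before its start, a motif found in 1.65% of 35116 promoters. A TATA box stood 29 bases before the AREG start, 32 before the EREG start and 29 before the EPGN start. Of all promoters 10.7% had one anywhere in the 250 bases, on either strand. That share is no test of these 3 genes, because the motif was added after their sequences were read. SPRED2 had a TATA box in a window of an alternative start and TGFA an NF-kB motif (5.21% of all promoters). AP-1 (4.2%), ETS (3.42%) and serum response motifs (1.16%) were in no window of the 10 genes, and the windows of HBEGF, SPRY1, SPRY2, SPRY4 and SPRED1 held none of the 6 motifs. A missing match says only that these letters are not in the 250 bases.

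In untreated cells (NT+noGV), levels of different genes were compared as CPM per kilobase of the canonical transcript. AREG, amphiregulin, stood at 328 in Ecto cells, 401 in Endo cells and 689 in VK2 cells, more than 10 times any other of the 10 genes. TGFA followed among the ligands in all 3 lines (23.3, 18.7 and 28.1). EREG had 15.3, 6.27 and 23.9, HBEGF 14.7, 13.5 and 19.5, and EPGN 1, 0.613 and 1.75 in the same order of lines. Among the inhibitors, SPRED2 was the most abundant (11.6, 14.1 and 17.6). SPRY1 had 2.13, 3.65 and 2.84, SPRED1 4.47, 3.63 and 5.62, and SPRY4 9.9, 6.96 and 11.7. SPRY2 had 1.99, 8.57 and 6.76, with a log2 difference of -2.11 ± 0.08 (SE) for Ecto minus Endo and -1.77 ± 0.08 for Ecto minus VK2 cells. AREG was lower in both cervical lines than in VK2 cells, by a log2 difference of -1.07 ± 0.05 for Ecto and -0.78 ± 0.05 for Endo. EREG was lower in Endo than in VK2 cells (-1.93 ± 0.12) and higher in Ecto than in Endo cells (1.29 ± 0.12). EPGN was lower in Endo than in VK2 cells (-1.51 ± 0.13). Over the 3 pairs of lines, HBEGF in Ecto minus Endo cells (0.12, 95% interval -0.06 to 0.29, adjusted p = 0.25) was the only difference of the 10 genes that did not pass the test between lines, fitted over all 72 libraries.

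NT+GV cells were compared with NT+noGV cells of the same line to see what the bacteria alone did to the 10 genes. A gene rose or fell at an adjusted p under 0.05 and is called changed when the fold change was also at least 2. Of the 5 ligands 4 rose in Ecto cells, 4 in Endo cells and 5 in VK2 cells. Over all tested genes 20.9% rose in Ecto cells, 25.7% in Endo cells and 13.9% in VK2 cells. The median log2 fold change of the ligands was 0.84 in Ecto cells, 1.26 in Endo cells and 0.75 in VK2 cells, against 0.00 for all genes in each line. Of the 5 inhibitors 1 rose in Ecto cells, while 1 fell in Ecto cells, 4 in Endo cells and 1 in VK2 cells, with medians of 0.05, -0.57 and -0.14. Over all genes 23.7%, 28.7% and 12.5% fell in the same order. With bulk RNA, fewer cells of a type and less RNA per cell cannot be told apart.

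EPGN, epigen, a low-affinity ligand of the receptor, had the largest change of the 10 in the cervical lines. In Ecto cells it stood at 16.4, 18.9 and 17.2 CPM in the NT+GV libraries, against 2.78, 2.23 and 3.08 CPM in the NT+noGV libraries. Endo cells had 6.58, 7.70 and 6.40 CPM with the bacteria and 1.72, 1.5 and 1.71 CPM without. In VK2 cells the values were 7.57, 9.08 and 9.89 CPM with GV and 4.52, 4.65 and 4.89 CPM without. The groups did not overlap in any line, and the VK2 libraries without bacteria were the highest of the 3 lines. On the log2 scale the change was 2.67 ± 0.10 in Ecto cells (SE, adjusted p = 8.3e-17), 2.08 ± 0.13 in Endo cells (1.9e-14) and 0.94 ± 0.10 in VK2 cells (1.4e-08). The rise was larger by 1.75 ± 0.15 in Ecto than in VK2 cells (adjusted p = 6.4e-15) and by 1.15 ± 0.17 in Endo than in VK2 cells (1.3e-07).

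HBEGF encodes a heparin-binding ligand that is shed early after injury. It stood at 76.2, 86.4 and 85.7 CPM in Endo NT+GV cells, against 30.1, 33.1 and 32.5 CPM in Endo NT+noGV cells. Ecto cells had 58.0, 48.2 and 47.5 CPM with GV and 35.6, 34.1 and 34.2 CPM without. VK2 cells had 83.5, 72.8 and 72.5 CPM with GV and 45, 46.9 and 46 CPM without. Every exposed library was above every unexposed one of its line. Its log2 fold change was 1.38 ± 0.09 in Endo (SE, adjusted p = 1.4e-10), 0.75 ± 0.08 in VK2 (1e-07) and 0.56 ± 0.08 in Ecto cells (1.6e-06).

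EREG, epiregulin, is a broad-specificity ligand with AREG as its nearest coding neighbour downstream. Its values in Endo cells were 61.4, 65.5 and 80.4 CPM with GV and 29.5, 25.5 and 31.8 CPM without. Ecto cells had 127, 130 and 124 CPM with GV and 78.8, 65.5 and 67.3 CPM without. In VK2 cells EREG stood at 215, 192 and 250 CPM with GV and at 120, 105 and 106 CPM without. Again no exposed library overlapped the unexposed ones of its line. Fitted log2 fold changes were 1.26 ± 0.12 in Endo (SE, adjusted p = 3.5e-08), 1.01 ± 0.09 in VK2 (5.7e-08) and 0.84 ± 0.12 in Ecto cells (1.2e-05). The VK2 value lay just past the fold threshold and was 0.91 to 0.98 without NT+GV replicate 3, NT+noGV replicate 2 or NT+noGV replicate 3.

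TGFA, transforming growth factor alpha, the classical autocrine ligand of keratinocytes, rose in each line without overlap of the groups. It was at 176, 174 and 167 CPM in Ecto NT+GV cells, against 95.7, 96.2 and 95.4 CPM in Ecto NT+noGV cells. Endo cells had 146, 154 and 145 CPM with GV and 76.7, 78.6 and 75.3 CPM without, and VK2 cells 190, 186 and 191 CPM with GV and 113, 116 and 117 CPM without. The log2 fold change was 0.84 ± 0.06, 0.96 ± 0.04 and 0.73 ± 0.03 in Ecto, Endo and VK2 cells (SE, adjusted p = 7.5e-12, 1.3e-18 and 3.4e-17).

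AREG, the most abundant of the ligands per length, moved little with the bacteria. In Ecto cells it stood at 395, 368 and 362 CPM with GV and at 429, 403 and 384 CPM without. Endo cells had 509, 493 and 472 CPM with GV and 500, 505 and 479 CPM without. In both lines the groups overlapped. The log2 fold change was -0.12 (95% interval -0.25 to 0.01, adjusted p = 0.14) in Ecto and 0.00 in Endo cells (adjusted p = 0.96). VK2 cells had 995, 1028 and 973 CPM with GV and 836, 855 and 859 CPM without, a log2 change of 0.25 ± 0.04 (SE, adjusted p = 5.1e-06).

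**Figure D1:**
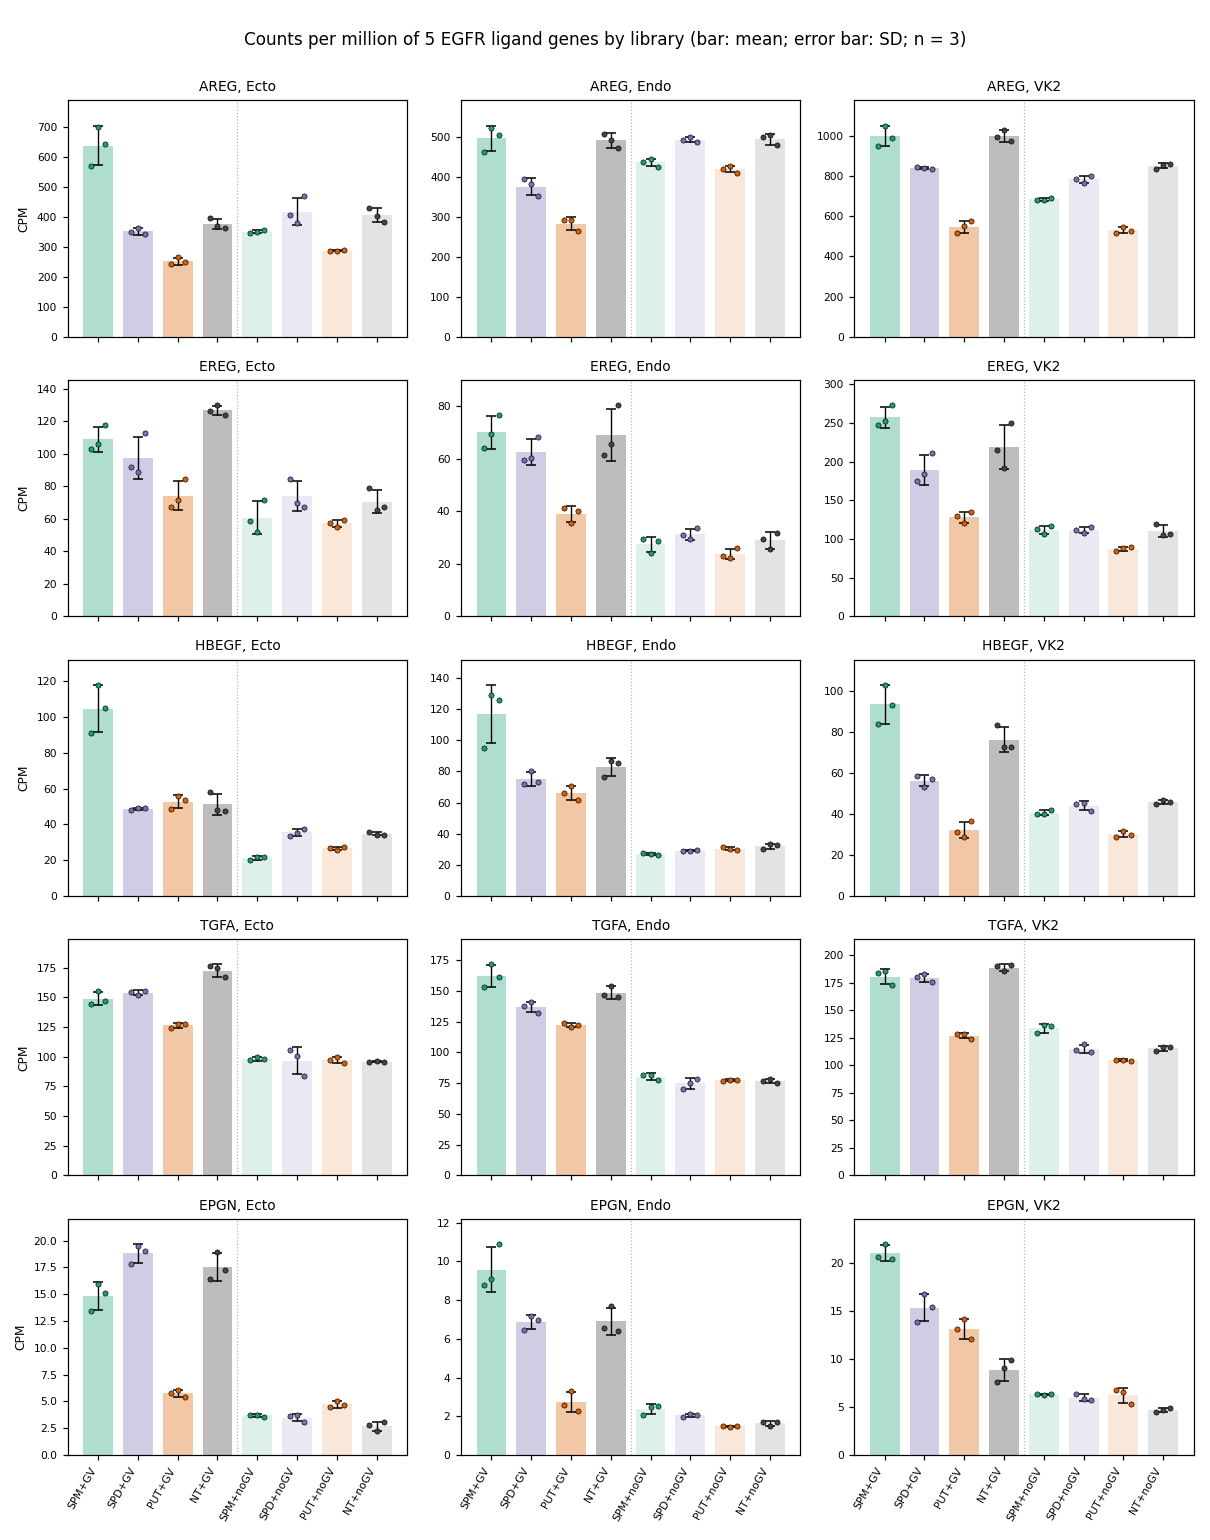
Level of the 5 ligands in CPM (linear axes from 0) in the 8 groups of each line, with a point for each library, bars for the means and error bars for the SD (n = 3). EPGN in Ecto and Endo cells separates widely between NT+GV and NT+noGV, whereas AREG, at 362 CPM or more in each of these libraries, overlaps between the same groups in both lines.

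Among the inhibitors, SPRY1 encodes a membrane-recruited antagonist of receptor tyrosine kinase signaling. It stood at 4.40, 3.81 and 4.64 CPM in Endo NT+GV cells, against 9.67, 9.12 and 9.71 CPM in Endo NT+noGV cells. VK2 cells had 5.07, 4.54 and 4.70 CPM with GV and 7.54, 7.42 and 7.23 CPM without. Ecto cells had 5, 5.62 and 6.20 CPM with GV and 5.70, 5.25 and 5.66 CPM without. Groups were separate in Endo and VK2 cells and overlapped in Ecto cells. Its log2 fold change was -1.14 ± 0.11 in Endo (SE, adjusted p = 1.7e-10), -0.61 ± 0.10 in VK2 (1.9e-05) and 0.01 ± 0.11 in Ecto cells (0.98). The change in Ecto cells exceeded that in Endo cells by 1.16 ± 0.15 (adjusted p = 7e-09).

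SPRY2, whose protein is a relative of SPRY1 that also binds the ubiquitin ligase CBL, fell in Endo cells, with -0.59 ± 0.07 on the log2 scale (SE, adjusted p = 1.3e-08). Its libraries there held 13.2, 12.2 and 13.6 CPM with GV and 20.6, 18.7 and 19.4 CPM without. In Ecto and VK2 cells its log2 fold changes were 0.05 and 0.02, neither past the test. SPRED1, which brings the RAS inhibitor neurofibromin to the membrane, fell in Endo cells (-0.57 ± 0.12, adjusted p = 0.00046). In Ecto cells SPRED1 rose by 0.29 ± 0.10 (adjusted p = 0.026), a call lost without NT+GV replicate 2 or 3 or NT+noGV replicate 2 or 3 (0.26 to 0.30, adjusted p from 0.056 to 0.092). SPRED2, a relative of SPRED1, fell in Endo cells (-0.57 ± 0.04, adjusted p = 4.7e-14) and in Ecto cells (-0.31 ± 0.06, adjusted p = 0.00018), and had -0.14 (adjusted p = 0.054) in VK2 cells.

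SPRY4, a further Sprouty that restrains activation of the kinase cascade, did not pass the test in any line. Its libraries held 48.8, 51.5 and 55.2 CPM with GV and 46.1, 47.6 and 52.0 CPM without in Ecto cells. Endo cells held 33.4, 34.4 and 33 CPM with GV and 33.9, 34.3 and 34.2 CPM without. VK2 cells held 56.4, 60.4 and 55.9 CPM with GV and 56.7, 56 and 59.5 CPM without. The log2 fold changes were 0.09, -0.02 and 0.02 in Ecto, Endo and VK2 cells (adjusted p = 0.35, 0.84 and 0.83).

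At the called threshold, 1 of the 10 genes changed with GV in Ecto (EPGN), 4 in Endo (EREG, HBEGF and EPGN up, SPRY1 down) and 1 in VK2 cells (EREG). Over all tested genes 6.47%, 9.28% and 2.24% were called in the same order of lines.

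**Figure D2:**
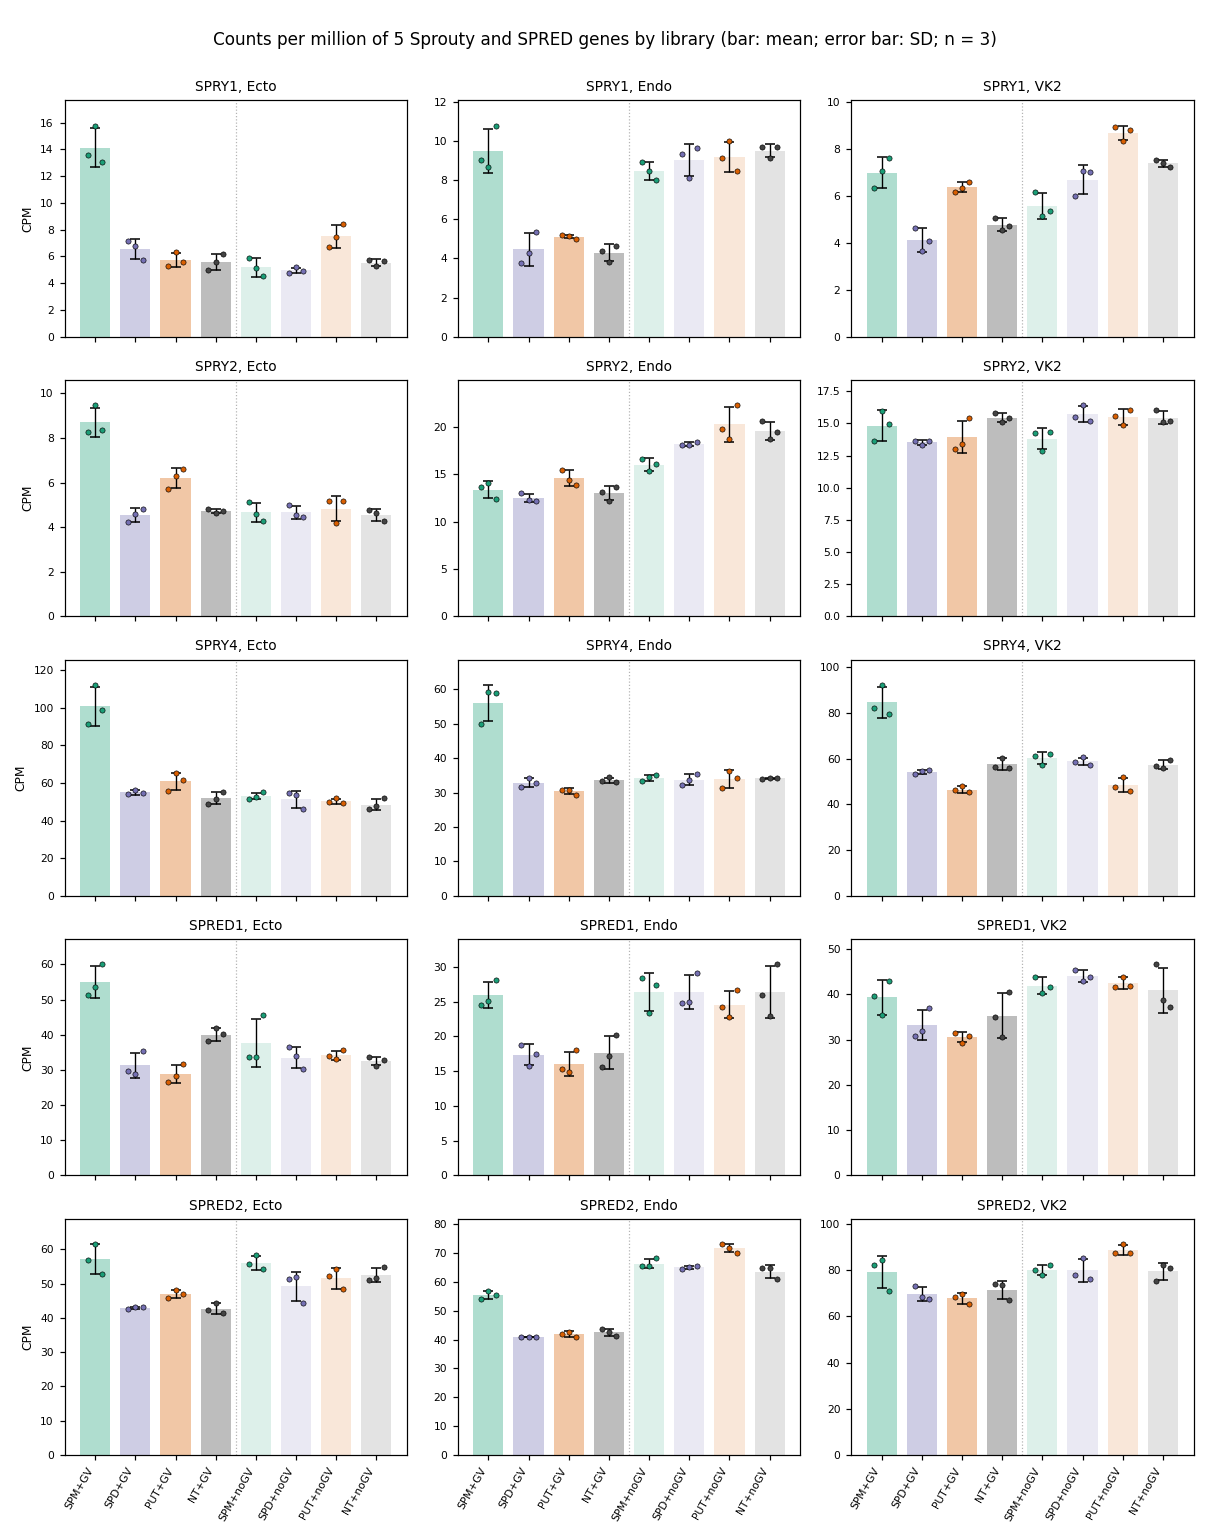
Level of the 5 inhibitors in CPM (linear axes from 0) in the 8 groups of each line, with a point for each library, bars for the means and error bars for the SD (n = 3). SPRY4 in SPM+GV cells lies above every other group of its line, and SPRY1 in Endo cells is lower in NT+GV than in NT+noGV cells.

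PUT+GV cells were compared with NT+GV cells to see whether putrescine given beforehand altered the levels during exposure. This comparison and those of the other polyamines share the NT+GV libraries. Of the 5 ligands 4 fell in Ecto cells, 5 in Endo cells and 4 in VK2 cells, with median log2 fold changes of -0.52, -0.79 and -0.77. Over all genes 24.9%, 28.2% and 31.4% fell in Ecto, Endo and VK2 cells, and the median was 0.07, 0.03 and 0.01. Of the 10 genes 3 rose in Ecto (SPRY2, SPRY4 and SPRED2), 1 in Endo (SPRY2) and 2 in VK2 cells (EPGN and SPRY1), against 31.5%, 27.9% and 29% of all genes. A single gene was called in each line, EPGN down in Ecto and Endo cells and HBEGF down in VK2 cells, where 9.9%, 8.08% and 11.1% of all genes were called.

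AREG was at 242, 265 and 249 CPM in Ecto PUT+GV cells, against 395, 368 and 362 CPM in Ecto NT+GV cells. Endo cells had 292, 293 and 265 CPM after putrescine and 509, 493 and 472 CPM without it. VK2 cells had 517, 550 and 575 CPM after putrescine and 995, 1028 and 973 CPM without it. No library of one group reached the range of the other. Fitted log2 fold changes were -0.52 ± 0.07 in Ecto cells (SE, adjusted p = 1.8e-07), -0.79 ± 0.04 in Endo cells (9.8e-16) and -0.86 ± 0.04 in VK2 cells (1.9e-18).

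EREG had 67.1, 71.3 and 84.7 CPM in Ecto PUT+GV cells and 127, 130 and 124 CPM in Ecto NT+GV cells. In Endo cells it was at 41.4, 35.6 and 40.2 CPM after putrescine and at 61.4, 65.5 and 80.4 CPM without it. In VK2 cells it was at 129, 120 and 134 CPM after putrescine and at 215, 192 and 250 CPM without it. These groups were separate too, with log2 fold changes of -0.72 ± 0.12, -0.82 ± 0.11 and -0.77 ± 0.08 in Ecto, Endo and VK2 cells (SE, adjusted p = 3.9e-05, 5.7e-06 and 2.9e-07). TGFA fell as well, with log2 fold changes of -0.40 ± 0.06, -0.27 ± 0.04 and -0.57 ± 0.03 (SE, adjusted p = 1e-06, 8.1e-07 and 2.4e-15).

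The direction for EPGN differed between lines. It was at 5.75, 6.08 and 5.44 CPM in Ecto PUT+GV cells, against 16.4, 18.9 and 17.2 CPM in Ecto NT+GV cells, and at 2.57, 3.29 and 2.28 CPM in Endo PUT+GV cells, against 6.58, 7.70 and 6.40 CPM in Endo NT+GV cells. In VK2 cells it was at 13.1, 14.2 and 12.1 CPM after putrescine and at 7.57, 9.08 and 9.89 CPM without it. All 3 pairs of groups were separate. The log2 fold change was -1.55 ± 0.09 in Ecto cells (SE, adjusted p = 1.3e-13), -1.34 ± 0.12 in Endo cells (6.5e-11) and 0.57 ± 0.09 in VK2 cells (1.6e-06). The difference between lines was -2.17 ± 0.13 for Ecto minus VK2 (adjusted p = 1.5e-21) and -1.91 ± 0.15 for Endo minus VK2 (1.7e-16).

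HBEGF fell in VK2 and Endo cells. In VK2 cells it was at 31, 28.7 and 36.5 CPM after putrescine, below the 83.5, 72.8 and 72.5 CPM of NT+GV cells, a log2 change of -1.25 ± 0.08 (SE, adjusted p = 5.3e-12). Endo cells had 66.0, 70.8 and 61.9 CPM after putrescine and 76.2, 86.4 and 85.7 CPM without it, -0.32 ± 0.09 (adjusted p = 0.0038). In Ecto cells the log2 fold change was 0.09 ± 0.08 (adjusted p = 0.3), and it exceeded that in VK2 cells by 1.30 ± 0.12 (adjusted p = 3.6e-13). Among the inhibitors all changes under putrescine stayed below 2-fold, from -0.42 ± 0.10 for SPRED1 (adjusted p = 0.0016) to 0.45 ± 0.10 for SPRY2 (0.00034), both in Ecto cells. SPRY4 rose by 0.29 ± 0.07 in Ecto (adjusted p = 0.0013) and had -0.30 ± 0.05 in VK2 cells (6.8e-06). The rise of SPRY2 in Endo cells (0.17 ± 0.07, adjusted p = 0.037) was lost with DESeq2 (0.12) and on leaving out each NT+GV or PUT+GV library in turn (0.053 to 0.3). That of SPRED2 in Ecto cells (0.19 ± 0.06, adjusted p = 0.012) was lost with DESeq2 (0.11) and without PUT+GV replicate 3 (0.13), and the fall of SPRY4 in Endo cells (-0.14 ± 0.06, 0.041) without NT+GV replicate 1 or 2 or PUT+GV replicate 3 (0.061 to 0.12).

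SPM+GV cells were compared with NT+GV cells for the same question about spermine. Of the 10 genes 7 rose in Ecto cells, 7 in Endo cells and 6 in VK2 cells, against 28.5%, 21.9% and 27.9% of all genes. In Ecto cells 2 fell (TGFA and EPGN), and 0 fell in Endo and 0 in VK2 cells, against 27.5%, 21.1% and 30.3% of all genes. At an unadjusted p under 0.05, and with DESeq2, 0 fell in Endo and VK2 cells too. All 5 inhibitors rose in Ecto cells, 4 in Endo cells and 3 in VK2 cells, with median log2 fold changes of 0.93, 0.56 and 0.22, against -0.02, -0.01 and -0.02 for all genes. Those called were HBEGF, SPRY1 and SPRY4 in Ecto, SPRY1 in Endo and EPGN in VK2 cells, where 13.5%, 5.83% and 11.1% of all genes were called. Without SPM+GV replicate 2, HBEGF (0.99) and SPRY4 (0.93) fell under the fold threshold in Ecto cells, and SPRY1 stayed past it (1.30).

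SPRY1 stood at 13.6, 15.8 and 13.1 CPM in Ecto SPM+GV cells, against 5, 5.62 and 6.20 CPM in Ecto NT+GV cells. Endo cells had 9.04, 8.67 and 10.8 CPM after spermine and 4.40, 3.81 and 4.64 CPM without it. VK2 cells had 6.32, 7.06 and 7.60 CPM after spermine and 5.07, 4.54 and 4.70 CPM without it. No groups overlapped, and the Endo values after spermine lay around the 9.67, 9.12 and 9.71 CPM of the NT+noGV libraries. On the log2 scale the change was 1.38 ± 0.11 in Ecto cells (SE, adjusted p = 2.6e-11), 1.16 ± 0.11 in Endo cells (3.5e-10) and 0.61 ± 0.10 in VK2 cells (8.1e-06).

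SPRY4, which had not passed the test with GV alone, was at 91.6, 112 and 98.8 CPM in Ecto SPM+GV cells, against 48.8, 51.5 and 55.2 CPM in Ecto NT+GV cells. Endo cells had 50, 59.3 and 58.8 CPM after spermine and 33.4, 34.4 and 33 CPM without it. VK2 cells had 82.1, 92.2 and 79.5 CPM after spermine and 56.4, 60.4 and 55.9 CPM without it. The 9 libraries of SPM+GV cells were each above all other libraries of their line. Its log2 fold changes were 1.01 ± 0.07, 0.75 ± 0.06 and 0.62 ± 0.05 in Ecto, Endo and VK2 cells (SE, adjusted p = 4.8e-12, 2.3e-12 and 2.9e-12).

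SPRY2 rose in Ecto cells, to 8.26, 9.46 and 8.37 CPM in SPM+GV cells, against 4.8, 4.65 and 4.72 CPM in NT+GV cells (log2 fold change 0.93 ± 0.10, adjusted p = 7.1e-09). Its values in Endo (0.05) and VK2 cells (0.00) were not past the test. SPRED2 rose by 0.47 ± 0.06, 0.39 ± 0.04 and 0.22 ± 0.05 in Ecto, Endo and VK2 cells (adjusted p = 4e-07, 7.2e-10 and 0.00091). SPRED1 rose by 0.50 ± 0.10 in Ecto and by 0.56 ± 0.12 in Endo cells (adjusted p = 0.00022 and 0.00091), and had 0.20 ± 0.10 in VK2 cells (0.083).

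Among the ligands HBEGF was at 91.3, 118 and 105 CPM in Ecto SPM+GV cells, against 58.0, 48.2 and 47.5 CPM in Ecto NT+GV cells. Endo cells had 95.3, 129 and 126 CPM after spermine and 76.2, 86.4 and 85.7 CPM without it. VK2 cells had 84.2, 103 and 93.2 CPM after spermine and 83.5, 72.8 and 72.5 CPM without it. The groups were separate, narrowly so in VK2 cells. Fitted log2 fold changes were 1.08 ± 0.07 in Ecto cells (SE, adjusted p = 3.8e-12), 0.50 ± 0.08 in Endo cells (6.8e-05) and 0.35 ± 0.07 in VK2 cells (0.00028).

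AREG rose with spermine in Ecto cells, to 569, 700 and 643 CPM in SPM+GV cells, against 395, 368 and 362 CPM in NT+GV cells (log2 fold change 0.82 ± 0.06, adjusted p = 6.7e-11). In Endo cells its log2 fold change was 0.02 (adjusted p = 0.69) and in VK2 cells 0.06 (0.18). EPGN was at 20.6, 21.9 and 20.4 CPM in VK2 SPM+GV cells, against 7.57, 9.08 and 9.89 CPM in VK2 NT+GV cells (1.31 ± 0.09, adjusted p = 3.6e-14). It rose by 0.48 ± 0.11 in Endo cells (adjusted p = 0.00057) and had -0.19 ± 0.08 in Ecto cells (0.048), a call lost with DESeq2 (adjusted p = 0.15), under 3 other alternatives, and without NT+GV replicate 2 or 3 or SPM+GV replicate 1 or 3 (0.06 to 0.25). The change in Ecto minus that in VK2 cells was -1.48 ± 0.12 (adjusted p = 2.1e-15). EREG rose in VK2 cells (0.29 ± 0.08, adjusted p = 0.0058) and had -0.17 in Ecto (0.23) and 0.03 in Endo cells (0.87). TGFA changed by no more than -0.16 ± 0.06 in Ecto (0.014) and 0.14 ± 0.04 in Endo cells (0.0068). The TGFA calls were lost in Ecto cells without SPM+GV replicate 1 (adjusted p = 0.054) and in Endo cells without NT+GV replicate 3 (0.075) or SPM+GV replicate 2 (0.15).

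**Figure D3:**
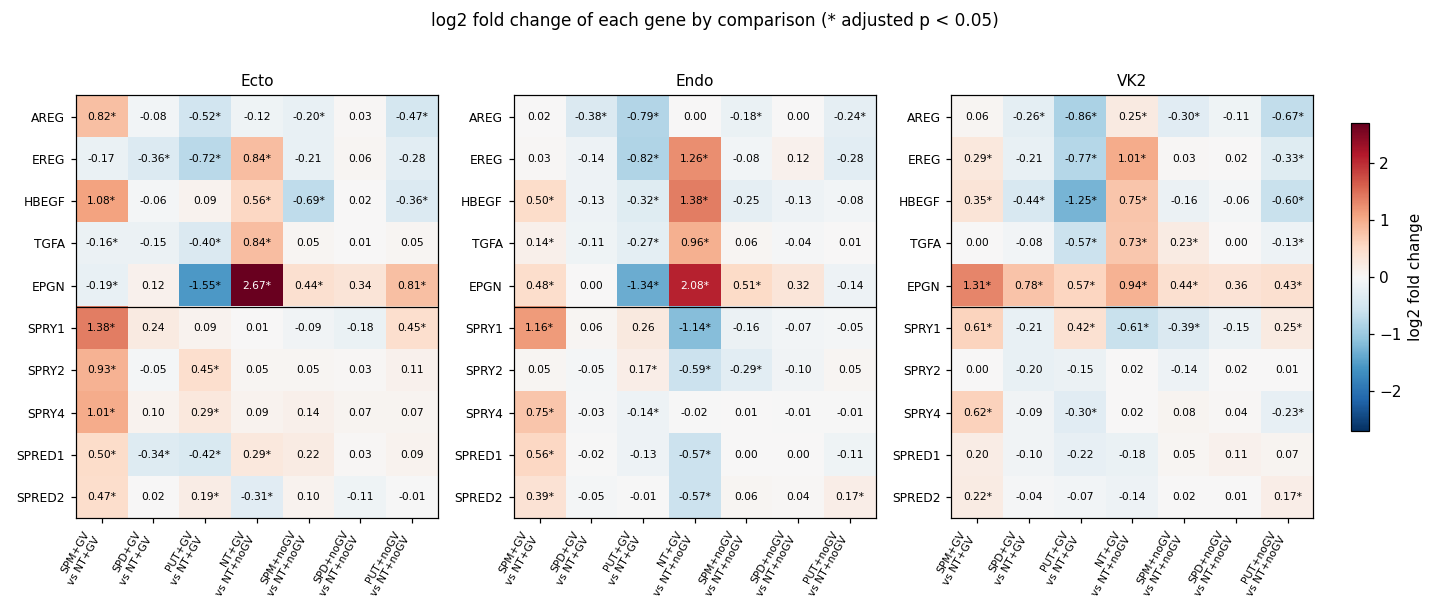
Log2 fold change of the 10 genes (vertical axis, ligands above the line) in 7 comparisons (horizontal axis) for each line, printed in the cells and coloured from blue (lower) to red (higher), with a star at an adjusted p under 0.05. The column of NT+GV against NT+noGV is red for EREG, HBEGF, TGFA and EPGN in each line, and that of SPM+GV against NT+GV is red for SPRY1 and SPRY4.

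Without bacteria, HBEGF, SPRY1, SPRY4 and SPRED2 did not rise with spermine past the test in any line. In SPM+noGV cells HBEGF was at 20.1, 21.9 and 21.8 CPM in Ecto cells, against 35.6, 34.1 and 34.2 CPM in NT+noGV cells, a log2 change of -0.69 ± 0.08 (SE, adjusted p = 5.5e-07). In Endo and VK2 cells its log2 fold change was -0.25 (adjusted p = 0.086) and -0.16 (0.14). SPRY1 had -0.09 in Ecto cells, -0.16 in Endo cells and -0.39 ± 0.10 in VK2 cells, of which the last passed (adjusted p = 0.0019). SPRY4 had 0.14, 0.01 and 0.08 in the 3 lines, with adjusted p from 0.16 to 0.97. AREG fell in all 3 lines (-0.20 ± 0.06, -0.18 ± 0.04 and -0.30 ± 0.04) and EPGN rose in all 3 (0.44 ± 0.11, 0.51 ± 0.15 and 0.44 ± 0.11). The AREG call in Ecto cells was lost without NT+noGV replicate 1 or 2 or SPM+noGV replicate 1 or 2 (adjusted p from 0.056 to 0.15). The EPGN call in Endo cells was lost without NT+noGV replicate 2 or SPM+noGV replicate 2 or 3 (0.06 to 0.071). TGFA rose in VK2 cells, with a mean of 134 CPM against 115.5 CPM in NT+noGV cells. SPRY2 fell in Endo cells, with a mean of 16.01 CPM against 19.58 CPM. In all, 3 of the 10 genes passed in Ecto cells, 3 in Endo cells and 4 in VK2 cells, against 23.5%, 18.1% and 33% of all genes.

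The interaction term is the log2 change with GV after spermine minus that without pretreatment. A positive value can be a larger rise, a smaller fall or a rise in place of a fall. Mean SPRY1 in Endo cells went from 9.5 to 4.28 CPM with GV, and after spermine from 8.48 to 9.49 CPM. The term was positive for AREG, HBEGF, SPRY1, SPRY4 and SPRED2 in each of the 3 lines. HBEGF had 1.77 ± 0.11 in Ecto cells (SE, adjusted p = 2e-12), 0.76 ± 0.13 in Endo cells (0.00021) and 0.51 ± 0.11 in VK2 cells (0.00063). SPRY1 had 1.47 ± 0.15, 1.32 ± 0.15 and 1.00 ± 0.14 (adjusted p = 3.1e-08, 3.7e-08 and 1.2e-06). SPRY4 had 0.87 ± 0.10, 0.74 ± 0.08 and 0.54 ± 0.07 (adjusted p = 1.5e-07, 1.9e-08 and 3.3e-07). For AREG it was 1.01 ± 0.09, 0.21 ± 0.06 and 0.36 ± 0.05 (adjusted p = 2.3e-09, 0.012 and 2.4e-06), where the change with spermine in Endo and VK2 cells was 0.02 and 0.06 with GV and -0.18 and -0.30 without. The AREG call in Endo cells was lost without NT+GV replicate 3 (adjusted p = 0.09) or SPM+GV replicate 2 (0.11). SPRED2 had 0.37 ± 0.09 in Ecto cells, 0.33 ± 0.05 in Endo cells and 0.19 ± 0.07 in VK2 cells, and its call in VK2 cells (0.042) was lost without NT+GV replicate 3, NT+noGV replicate 2 or 3, SPM+GV replicate 1 or 2 or SPM+noGV replicate 1 or 2 (0.06 to 0.14). EPGN had -0.63 ± 0.14 in Ecto (adjusted p = 0.00073) and 0.87 ± 0.14 in VK2 cells (7.4e-06). Positive interactions passed for 6 of the 10 genes in Ecto cells, 7 in Endo cells and 6 in VK2 cells, against 19%, 14.1% and 17% of all genes. Negative ones passed for 2 in Ecto cells, 0 in Endo cells and 1 in VK2 cells, against 17.3%, 10.2% and 21.9%. Besides EPGN this was TGFA, with -0.23 ± 0.05 in VK2 (adjusted p = 0.00028) and -0.21 ± 0.08 in Ecto cells (0.039), a call lost without NT+GV replicate 1 or 2, NT+noGV replicate 1, 2 or 3, SPM+GV replicate 1 or 3 or SPM+noGV replicate 2 or 3 (0.051 to 0.078).

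**Figure D4:**
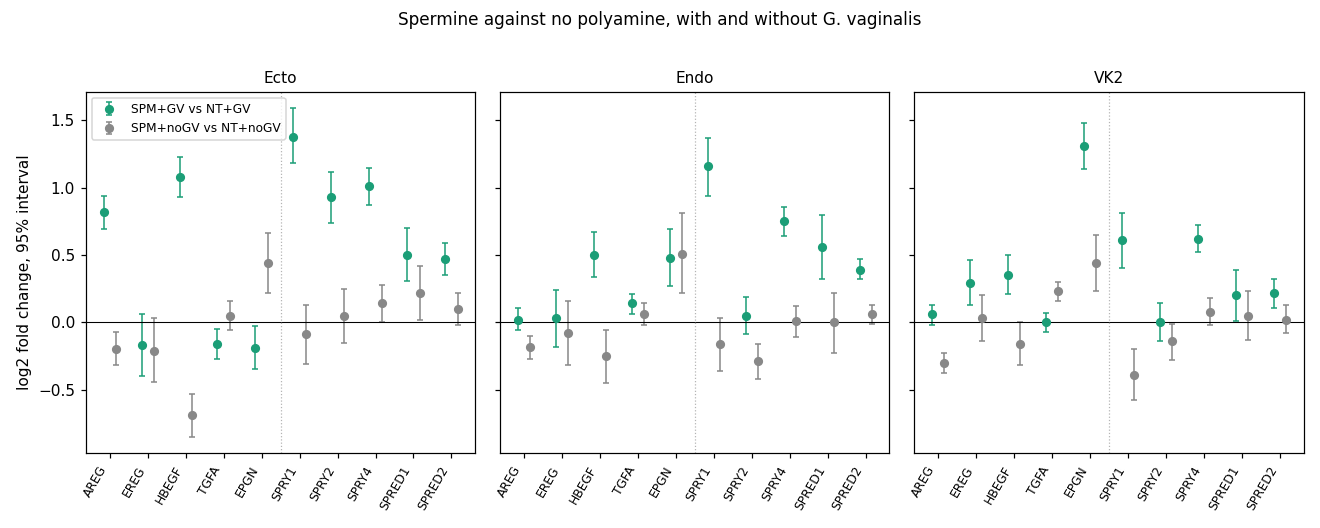
Log2 fold change with 95% interval for the 10 genes (horizontal axis) in each line, for SPM+GV against NT+GV cells (green) and SPM+noGV against NT+noGV cells (grey). HBEGF, SPRY1 and SPRY4 lie above 0 with GV in each line, from 0.35 to 1.38, and between -0.69 and 0.14 without.

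Putrescine given without bacteria lowered AREG in each line, with log2 fold changes of -0.47 ± 0.06 in Ecto cells, -0.24 ± 0.04 in Endo cells and -0.67 ± 0.04 in VK2 cells (SE, adjusted p = 1.2e-06, 6.7e-05 and 4.2e-15). HBEGF fell in Ecto (-0.36 ± 0.08, adjusted p = 0.00052) and VK2 cells (-0.60 ± 0.08, 2.8e-06). EPGN rose in Ecto (0.81 ± 0.11, adjusted p = 7.7e-07) and VK2 cells (0.43 ± 0.11, 0.0012), and SPRY1 in Ecto (0.45 ± 0.11, 0.0012) and VK2 cells (0.25 ± 0.09, 0.03). The SPRY1 call in VK2 cells was lost with DESeq2 (adjusted p = 0.064) and without NT+noGV replicate 2 or 3 or PUT+noGV replicate 1 or 3 (0.058 to 0.089). In VK2 cells 4 of the 5 ligands fell and 1 rose, against 23% and 22% of all genes. EREG was among those that fell, with a mean of 87.1 CPM against 110.4 CPM in NT+noGV cells. TGFA was another, with 104.8 against 115.5 CPM. SPRY4 fell in VK2 cells (48.5 against 57.4 CPM). SPRED2 rose in VK2 (88.7 against 79.5 CPM) and Endo cells (71.7 against 63.5 CPM). In all, 4 of the 10 genes passed in Ecto cells, 2 in Endo cells and 8 in VK2 cells, against 46.8%, 31.9% and 45% of all genes. The interaction with GV was negative for 3 of the 10 genes in Ecto cells, 5 in Endo cells and 5 in VK2 cells, against 12%, 19.9% and 17.8% of all genes. It was positive for 1 gene in Ecto cells, HBEGF (0.45 ± 0.11, adjusted p = 0.0028), and for 0 in Endo and 0 in VK2 cells, against 14.4%, 14.9% and 9.82% of all genes. HBEGF in VK2 cells had -0.65 ± 0.11 (0.00017). TGFA was among the genes with a negative interaction in each line (-0.44 ± 0.08, -0.28 ± 0.06 and -0.44 ± 0.05). For EPGN the interaction was -2.36 ± 0.14 in Ecto (adjusted p = 1.1e-11), where PUT+GV cells at 5.75, 6.08 and 5.44 CPM lay near the PUT+noGV cells at 4.43, 5.07 and 4.70 CPM, and -1.20 ± 0.20 in Endo cells (2e-05). For AREG it was -0.05 ± 0.09 in Ecto cells (adjusted p = 0.76), -0.55 ± 0.06 in Endo cells (2.5e-08) and -0.19 ± 0.05 in VK2 cells (0.0066).

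Spermidine moved few of the 10 genes with GV and 0 of them without. In SPD+GV against NT+GV cells 2 passed in Ecto cells, 1 in Endo cells and 3 in VK2 cells, against 13.1%, 13.9% and 12.7% of all genes. EPGN in VK2 cells had the largest of these changes, at 13.9, 16.7 and 15.4 CPM in SPD+GV cells and 7.57, 9.08 and 9.89 CPM in NT+GV cells (log2 fold change 0.78 ± 0.09, adjusted p = 3.3e-07). AREG fell in Endo (-0.38 ± 0.04, adjusted p = 3.7e-07) and VK2 cells (-0.26 ± 0.04, 2.3e-05), and HBEGF in VK2 cells (-0.44 ± 0.08, 0.00038). In Ecto cells EREG had -0.36 ± 0.12 (adjusted p = 0.048) and SPRED1 -0.34 ± 0.10 (0.032). Both calls were lost without NT+GV replicate 1, 2 or 3 or SPD+GV replicate 1 or 2, with adjusted p from 0.093 to 0.2 for EREG and from 0.067 to 0.15 for SPRED1. In SPD+noGV against NT+noGV cells 0 of the 10 genes passed in any line, with edgeR and with DESeq2, against 0.303%, 0.181% and 0.46% of all genes in Ecto, Endo and VK2 cells. At an unadjusted p under 0.05, 1 gene passed in Ecto cells, 1 in Endo cells and 2 in VK2 cells.

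Spermine and spermidine were given at the same dose and time, and 1 pair of groups per line compares them directly in the presence of GV. In SPM+GV against SPD+GV cells 7 of the 10 genes were higher in Ecto cells, 8 in Endo cells and 10 in VK2 cells, against 27.6%, 23.4% and 25.1% of all genes. SPRY1 was higher by 1.14 ± 0.10, 1.09 ± 0.11 and 0.82 ± 0.10 on the log2 scale (SE, adjusted p = 8e-10, 8.5e-10 and 6e-08). HBEGF was higher by 1.14 ± 0.07, 0.64 ± 0.08 and 0.80 ± 0.07 (adjusted p = 1.6e-12, 4.4e-06 and 6.7e-09), and SPRY4 by 0.91 ± 0.07, 0.77 ± 0.06 and 0.71 ± 0.05 (4e-11, 9.3e-13 and 1.8e-13). AREG was higher by 0.90 ± 0.07 in Ecto cells, 0.40 ± 0.04 in Endo cells and 0.32 ± 0.04 in VK2 cells. EPGN was lower in Ecto cells (-0.30 ± 0.08, adjusted p = 0.0023). In VK2 cells TGFA (0.08 ± 0.03, adjusted p = 0.049) did not pass without SPD+GV replicate 1, 2 or 3 or SPM+GV replicate 1 or 2, SPRY2 (0.20 ± 0.07, 0.018) without SPD+GV replicate 2 or SPM+GV replicate 2 or 3, and SPRED1 (0.31 ± 0.10, 0.012) without SPD+GV replicate 1 or SPM+GV replicate 3. The pair did not differ past the test for EREG in Ecto (0.19, 95% interval -0.04 to 0.43) and Endo cells (0.16, -0.05 to 0.37), TGFA in Ecto cells (-0.01, -0.12 to 0.10) and SPRY2 in Endo cells (0.10, -0.04 to 0.24). Without bacteria fewer of the 10 genes passed. In SPM+noGV against SPD+noGV cells 1 was higher in Ecto (SPRED2), 0 in Endo and 1 in VK2 cells (TGFA), against 10.4%, 5.73% and 15.2% of all genes, and 2, 1 and 1 were lower, against 10%, 6.92% and 13.1%. AREG was lower in all 3 lines (-0.23 ± 0.06, -0.18 ± 0.04 and -0.19 ± 0.04, adjusted p = 0.014, 0.0038 and 0.00028) and HBEGF in Ecto cells (-0.71 ± 0.08, adjusted p = 6.7e-07). TGFA was higher in VK2 cells by 0.23 ± 0.03 (5.4e-06) and SPRED2 in Ecto cells by 0.21 ± 0.06 (0.017). In Ecto cells AREG did not pass without SPD+noGV replicate 3 (0.068), nor SPRED2 without SPD+noGV replicate 3 (0.089) or SPM+noGV replicate 2 (0.083). Putrescine was given at a 10-fold higher concentration, so its values stand beside those of the other polyamines without a comparison.

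Over the 24 groups, centred within each line, the Pearson correlation of mean log2 CPM describes which genes had like patterns. The points share lines and bacteria, and no test was made. Among the 10 genes EREG and TGFA were the most alike (0.939), followed by HBEGF and TGFA (0.882), EPGN and TGFA (0.881) and EREG and HBEGF (0.879). SPRED1 paired with SPRY1 (0.806) and SPRED2 (0.773), and TGFA and SPRED2 had -0.69. Across 16962 genes, those nearest to TGFA were IL1B (0.957), SERPINB2 (0.953) and INHBA (0.941), and those nearest to EREG were ZP4 (0.962), TNIP1 (0.955) and IL1B (0.952). HBEGF was nearest to IRAK2 (0.915), IL1B (0.904) and ALOXE3 (0.901). EPGN was nearest to MRGPRX3 (0.936), TNIP3 (0.93) and CXCL3 (0.922), and AREG to LRIG2 (0.906), CEBPB (0.903) and TMEM39A (0.894). SPRY4 was nearest to PPP1R15A (0.953), SPRY1 to PRKCE (0.93), SPRED1 to RBFOX2 (0.952), SPRED2 to ZFP91 (0.963) and SPRY2 to CDK19 (0.908).

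Of 12 further transcripts induced by ERK signaling, 6 rose and 4 fell with GV in Ecto cells, 5 rose and 6 fell in Endo cells, and 4 rose and 5 fell in VK2 cells, with medians of 0.24, -0.08 and -0.20. Over all genes 20.9%, 25.7% and 13.9% rose and 23.7%, 28.7% and 12.5% fell with GV, with a median of 0 in each line. DUSP6, the ERK phosphatase whose transcript follows ERK activity, fell with GV (Ecto -0.77, Endo -1, VK2 -0.45). FOSL1, an AP-1 subunit, rose (0.91, 1.13 and 0.28), as did the early gene IER3 (0.87, 1.24 and 0.78). After spermine, in SPM+GV against NT+GV cells, 8 of the 12 rose and 0 fell in Ecto cells, 11 rose and 0 fell in Endo cells, and 9 rose and 3 fell in VK2 cells, with medians of 0.37, 0.36 and 0.47. Of all genes 28.5%, 21.9% and 27.9% rose there and 27.5%, 21.1% and 30.3% fell. Without bacteria, in SPM+noGV against NT+noGV cells, 4 of the 12 rose and 3 fell in Ecto cells, 2 rose and 5 fell in Endo cells, and 2 rose and 4 fell in VK2 cells, against 11.3%, 8.02% and 17.4% of all genes risen and 12.2%, 10.1% and 15.6% fallen. With spermine and GV, the immediate early gene EGR1 had the largest changes of the list (4.93, 4.48 and 5.49). DUSP6 rose as well (0.73, 0.74 and 0.41).

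EGFR itself, the receptor of the 5 ligands, fell with putrescine in PUT+GV against NT+GV cells (-0.74, -0.63 and -0.85 in Ecto, Endo and VK2 cells), while ERBB3, a partner receptor, rose (0.83, 0.88 and 0.57). Of the receptor genes 3 passed the filter in Ecto cells, 4 in Endo cells and 3 in VK2 cells. Under putrescine 1 rose and 2 fell in Ecto cells, 2 rose and 2 fell in Endo cells, and 1 rose and 2 fell in VK2 cells, against 31.5%, 27.9% and 29% of all genes risen and 24.9%, 28.2% and 31.4% fallen. Putrescine without bacteria was followed by 1 risen and 2 fallen receptor genes in Ecto and in VK2 cells. In Endo cells 1 rose and 1 fell. Of all genes 23.9%, 15.6% and 22% rose without bacteria in Ecto, Endo and VK2 cells, and 22.9%, 16.3% and 23% fell. With spermine and GV 1 receptor gene rose and 2 fell in Ecto cells, 1 fell in Endo cells and 2 fell in VK2 cells. Of all genes 28.5%, 21.9% and 27.9% rose with spermine and GV, and 27.5%, 21.1% and 30.3% fell. With GV alone 0 receptor genes rose in any line. In Ecto cells 1 fell, in Endo cells 2 and in VK2 cells 1, against 23.7%, 28.7% and 12.5% of all genes. RHBDF2, which escorts the ligand-shedding protease ADAM17 to the surface, fell in PUT+GV against NT+GV cells (-0.99, -0.89 and -0.69). Of the 4 shedding genes 1 rose and 1 fell there in Ecto cells, and 1 rose and 3 fell in Endo cells. In VK2 cells 0 rose and 4 fell. The shares of all genes were 31.5%, 27.9% and 29% risen and 24.9%, 28.2% and 31.4% fallen. RHBDF2 fell with spermine as well (-0.77, -0.33 and -0.39). With spermine 4 of the 4 shedding genes fell in Ecto cells, 2 in Endo cells and 3 in VK2 cells. Of all genes 27.5%, 21.1% and 30.3% fell. Spermine without bacteria was followed by lower levels of 3 of them in Ecto cells, 1 in Endo cells and 2 in VK2 cells, against 12.2%, 10.1% and 15.6%.

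Of the 6 other ligands of the family 5 passed the filter. With GV 0 rose and 1 fell in Ecto cells, 1 rose and 1 fell in Endo cells, and 2 rose and 0 fell in VK2 cells. With spermine 2 rose and 0 fell in Ecto cells, 2 rose and 0 fell in Endo cells, and 1 rose and 1 fell in VK2 cells. Under putrescine 1 rose and 1 fell in Ecto cells, 0 rose and 1 fell in Endo cells, and 1 rose and 2 fell in VK2 cells. Over all genes 20.9%, 25.7% and 13.9% rose with GV and 23.7%, 28.7% and 12.5% fell. After spermine 28.5%, 21.9% and 27.9% of all genes rose and 27.5%, 21.1% and 30.3% fell. After putrescine 31.5%, 27.9% and 29% of all genes rose and 24.9%, 28.2% and 31.4% fell. BTC, betacellulin, rose with GV in Endo (1.11) and VK2 cells (1.01) and fell with putrescine in Ecto (-1.01) and VK2 cells (-0.70). NRG4, a ligand of ERBB4, rose with spermine in Ecto (1.44) and Endo cells (1.46), and EGF itself fell in VK2 cells (-1.02). NRG1, a ligand of ERBB3 and ERBB4, fell with GV in Ecto (-0.25) and Endo cells (-0.83) and rose with spermine in all 3 lines (0.50, 0.26 and 0.16). Of 10 other feedback inhibitors 2 rose and 4 fell with GV in Ecto cells, 2 rose and 5 fell in Endo cells, and 2 rose and 1 fell in VK2 cells, against 20.9%, 25.7% and 13.9% of all genes risen and 23.7%, 28.7% and 12.5% fallen. With spermine 3 rose and 0 fell in Ecto cells, 3 rose and 0 fell in Endo cells, and 4 rose and 2 fell in VK2 cells, against 28.5%, 21.9% and 27.9% of all genes risen, shares near those of the list, and 27.5%, 21.1% and 30.3% fallen. Under putrescine 2 of these 10 inhibitors rose and 1 fell in Ecto cells, and 3 rose and 2 fell in Endo cells. In VK2 cells 4 rose and 5 fell. The shares of all genes were 31.5%, 27.9% and 29% risen and 24.9%, 28.2% and 31.4% fallen. ERRFI1, an inhibitor that binds the receptor kinase, rose with spermine (0.96, 0.36 and 0.22 in Ecto, Endo and VK2 cells) and fell with putrescine (-0.60, -0.31 and -0.77). The 13 genes of the signal relay from SHC1 to MAPK3 moved in both directions. With GV 4 rose and 4 fell in Ecto cells, 4 rose and 5 fell in Endo cells, and 1 rose and 1 fell in VK2 cells, with medians of -0.04, 0.04 and 0.04. With spermine 4 rose and 3 fell in Ecto cells, 4 rose and 3 fell in Endo cells, and 6 rose and 4 fell in VK2 cells, with medians of 0.02, 0 and 0.09. Under putrescine 4 rose and 5 fell in Ecto cells, 4 rose and 6 fell in Endo cells, and 3 rose and 7 fell in VK2 cells. The medians were 0.02, -0.15 and -0.13. Of all genes 31.5%, 27.9% and 29% rose under putrescine and 24.9%, 28.2% and 31.4% fell. For GV and spermine the shares of all genes are those given above for the other ligands. SHC1, the adaptor that links the receptor to RAS activation, fell with putrescine (-0.83, -0.74 and -0.46).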

How the data were processed

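Total RNA without ribosomal RNA was sequenced. The authors used Salmon to quantify transcripts and tximeta to sum them by gene, on GRCh38.p13 and annotation release 44. The deposited table gives estimated counts per gene as whole numbers, not normalized, for 62266 genes and 72 libraries. Whether duplicate molecules were removed was not stated. All gene identifiers and coordinates were found in release 44. From these counts, one edgeR 4.0.16 quasi-likelihood model (R 4.3.3, TMM factors, filterByExpr, robust) was fitted per line to its 24 libraries and 8 groups. It tested 19459 genes in Ecto cells, 18741 in Endo cells and 18474 in VK2 cells. Differences between lines came from one fit of 21195 genes over 72 libraries. All tests were two-sided, and Benjamini-Hochberg adjustment of p-values ran over all genes of a comparison. CPM used library totals scaled by the TMM factors of the fit over 72 libraries. Fold changes within a line used TMM factors of that line alone, so they can differ slightly from the CPM beside them. Replicates differed by more than counting (ratio of chi-square to degrees of freedom from 2.27 to 42.4), so none was a copy. DESeq2 1.42.0 and other alternatives are given at the end. Steps were tested on simulated data. The 10 genes, the pathway lists and the tests were chosen with earlier results of these data known. For each list and comparison up to 4 genes were named, by smallest adjusted p in any line, and per gene the 3 with the most similar pattern. Promoters came from RefSeq (GRCh38.p14), where 10 of 10 genes matched. Figures were drawn with Python 3.11.15, pandas 2.3.3 and matplotlib 3.10.9.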

Additional observations from a re-analysis of the deposited data

Results flagged for a closer look

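Changes of the same comparison were set against each other between lines, in one edgeR fit over all 72 libraries, and those that differed at an adjusted p under 0.05 and by at least 2-fold are given here as log2 differences with their SE. With NT+GV against NT+noGV, the rise of EPGN was larger in Ecto than in VK2 cells by 1.75 ± 0.15 (adjusted p = 6.4e-15) and larger in Endo than in VK2 cells by 1.15 ± 0.17 (1.3e-07). SPRY1 fell in Endo cells, and its change in Ecto minus that in Endo cells was 1.16 ± 0.15 (adjusted p = 7e-09). With PUT+GV against NT+GV, EPGN moved in opposite directions, with -2.17 ± 0.13 for Ecto minus VK2 (adjusted p = 1.5e-21) and -1.91 ± 0.15 for Endo minus VK2 (1.7e-16). HBEGF in the same comparison had 1.3 ± 0.12 for Ecto minus VK2 (adjusted p = 3.6e-13). With SPM+GV against NT+GV, EPGN had -1.48 ± 0.12 for Ecto minus VK2 (adjusted p = 2.1e-15). EPGN accounts for 5 of the 7 differences. Its untreated level was lower in both cervical lines than in VK2 cells, by a log2 difference of -1.51 for Endo and -0.77 for Ecto. The part of that level in these differences was not tested.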

How the results depend on the processing

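The counts of called genes among the 10 were the same under DESeq2, with its size factors in edgeR, with no filter on low counts and with only the groups compared in the fit. Same-numbered replicates did not deviate together (median correlation 0.0203, 0 of 27 comparisons with every pair over 0.1), so the numbers were not taken to pair the libraries. A replicate block left the counts for NT+GV against NT+noGV at 1 in Ecto cells, 4 in Endo cells and 1 in VK2 cells, and the other counts as they were. With the adjusted p alone, in place of a fold of at least 2, the counts in Ecto, Endo and VK2 cells were 6, 8 and 6 for NT+GV against NT+noGV, 8, 7 and 7 for PUT+GV against NT+GV and 9, 7 and 6 for SPM+GV against NT+GV. They were 2, 1 and 3 for SPD+GV against NT+GV, 4, 2 and 8 for PUT+noGV against NT+noGV and 3, 3 and 4 for SPM+noGV against NT+noGV. At a log2 fold change of at least 2, NT+GV against NT+noGV had 1 gene in Ecto cells, 1 in Endo cells and 0 in VK2 cells, and PUT+GV and SPM+GV against NT+GV had 0 in each line. These shifts follow from the threshold itself. Leaving out single libraries gave 0 to 2 called genes for NT+GV in VK2 cells, with 0 without NT+GV replicate 3 or NT+noGV replicate 2 or 3, and 1 to 3 for SPM+GV in Ecto cells, with 1 without SPM+GV replicate 2. Over 360 results for single genes, 4 calls were lost and 10 gained with DESeq2, 3 and 6 with the other size factors, 5 and 19 with no filter, 4 and 14 with fewer groups in the fit, and 0 and 11 with the block. Of 2700 values with a library left out, 77 lost a call and 24 gained one. Over 150 differences between lines, 2 calls were lost and 4 gained with DESeq2, 2 and 2 with its size factors, 7 and 11 with no filter and 0 and 6 with the block, and of 450 values with a replicate left out 41 lost a call and 8 gained one. None of these losses was among the 7 differences of at least 2-fold given above. No direction reversed under any of these. Depth limits most the genes with the fewest counts, with a lowest count of 43 for EPGN in Endo PUT+noGV cells.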
